A study of Mus musculus with 2 samples.

Results

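The miR-30 family comprises miR-30a, miR-30b, miR-30c, miR-30d and miR-30e, and its members were chosen by name alone, from the miRNA name that the authors' tables give each precursor. Small RNA sequencing of E9.5 mouse hearts gave the family 5 precursor entries, 1 for each member, among the 568 entries listed for replicate 1 and the 523 listed for replicate 2. All 5 were listed in both replicates, as were 471 entries in all. The hearts came from wild type C57BL/6 embryos at embryonic day 9.5. There is 1 group with 2 replicates and no second genotype, treatment or stage, and no label says whether the replicates came from separate litters or how many hearts were pooled, so that the spread between them may be technical. Total RNA was extracted with Trizol and sequenced as single-end reads of 50 nt, and the values are raw read counts on each arm of each precursor. Levels and ratios given here are of such reads, and how evenly the library preparation captured different sequences was not tested. Replicate 1 held 4942257 mature and 124128 star reads, and replicate 2 held 4806179 and 132103. Cardiac muscle miRNAs (miR-1a, miR-133a, miR-208a, miR-208b and miR-499) held 22.6% and 23.5% of mature reads, with 4 of the 5 listed in both replicates and miR-208a in only 1. MiR-1a and miR-133a are each listed at 2 hairpins with the same or nearly the same mature reads. The cardiac share counts these reads at each hairpin, with 9.97% and 10.5% for each of miR-1a, and should not be set directly against the shares that follow. The libraries also held miRNAs of endothelium (miR-126a, 2.90% and 2.87%) and of smooth muscle (miR-143 and miR-145a, 7.94% and 6.82%), whose part in the levels of the miR-30 family was not tested. In such whole-tissue libraries, fewer cells of a type and less RNA per cell cannot be told apart.

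A miRNA precursor is a hairpin, cut from its primary transcript by Drosha with DGCR8 and then by Dicer, which leaves a short duplex of the 5p and 3p arms. One arm is usually kept in an Argonaute protein as the mature miRNA and pairs with targets through its seed, nucleotides 2 to 8, while the other arm, called the star, is mostly lost. Members of the miR-30 family share the seed of the 5p arm, are abundant in the adult heart, and are known for repressing Ctgf, a matrix-associated growth factor, and Dll4, a Notch ligand of sprouting endothelium.

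The sequences show what the members share and where they part, with the seed in capitals. The 5p arms, which the tables call mature in both replicates, are written here 5′ to 3′ as the tables give them.
miR-30a-5p: uGUAAACAuccucgacuggaagc
miR-30b-5p: uGUAAACAuccuacacucagc
miR-30c-5p: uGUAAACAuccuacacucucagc
miR-30d-5p: uGUAAACAuccccgacuggaagc
miR-30e-5p: uGUAAACAuccuugacuggaagc
The 3p arms, which the tables call star, differ already in the seed.
miR-30a-3p: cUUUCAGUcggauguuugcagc
miR-30d-3p: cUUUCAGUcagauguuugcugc
miR-30e-3p: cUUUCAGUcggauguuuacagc
miR-30b-3p: cUGGGAUGuggauguuuacg
miR-30c-3p: cUGGGAGAaggcuguuuacuc

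All 5 of the 5p arms had the seed GUAAACA. The 3p arms fell into 3 seed groups, with UUUCAGU in miR-30a, miR-30d and miR-30e, UGGGAUG in miR-30b and UGGGAGA in miR-30c. Counting positions from 1 at the 5′ end, miR-30a-5p differed from miR-30d-5p only by U12C and from miR-30e-5p only by C13U. The 3p arms of miR-30a and miR-30e differed only by G18A. Reads of these near-identical arms are told apart by a single base, and the number of mismatches allowed in mapping is not given in the sources used here, so their split is uncertain to that extent. MiR-30b-5p and miR-30c-5p were alike over their first 18 nt and differed by A19U, G20C and C21A, as miR-30b-5p lacks 2 bases that miR-30c-5p has. The arms of 3 of the 5 members were compared with RefSeq (GRCm38.p6), and those of miR-30b and miR-30d were not compared here. The table sequences of miR-30a-5p and miR-30e-5p were 1 base longer at the 3′ end than those of RefSeq, miR-30c-3p was 1 base shorter than miR-30c-2-3p, and the other 3 matched RefSeq arms were identical.

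The 5 hairpins lay on 3 chromosomes of mm9, and each listed precursor was identical to the reference sequence of NCBIM37 at its position. MiR-30a lay at chr1:23279113-23279175 and miR-30c at chr1:23298553-23298613, both on the plus strand and 19377 bp apart. MiR-30d lay at chr15:68172779-68172840 and miR-30b at chr15:68168995-68169052, both on the minus strand and 3726 bp apart. GENCODE vM1 annotates the hairpins at these 4 positions as the miRNA genes Mir30a, Mir30c-2, Mir30d and Mir30b and places no other gene over them. MiR-30e lay at chr4:120445223-120445286 on the minus strand, in an intron of Nfyc (120430043 to 120504177), which encodes a subunit of the nuclear factor Y complex and is read from the same strand. With gaps of at most 10 kb these were 4 loci, and with at most 50 kb they were 3, because miR-30a and miR-30c then joined. No other listed precursor lay within 50 kb of any of them on either strand.

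The sequence of miR-30c-5p had 2 exact copies in the genome, whereas each of the other arms had 1. The second copy lies at chr4:120442189-120442211 in Mir30c-1, 2995 bp from the miR-30e hairpin in the same intron of Nfyc. No entry was listed at Mir30c-1 in either replicate. Reads of miR-30c-5p therefore cannot be told apart between the copies. The 3p reads listed are those of Mir30c-2, whose 3p arm differs from that of Mir30c-1 by A9G and C12U over the 21 nt listed. In RefSeq both 3p arms have 22 nt, and they differ in the last base as well. The 3p arm of Mir30c-1, as RefSeq gives it, is shown because no reads are listed for it.
miR-30c-1-3p: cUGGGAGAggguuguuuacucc

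**Figure D1:**
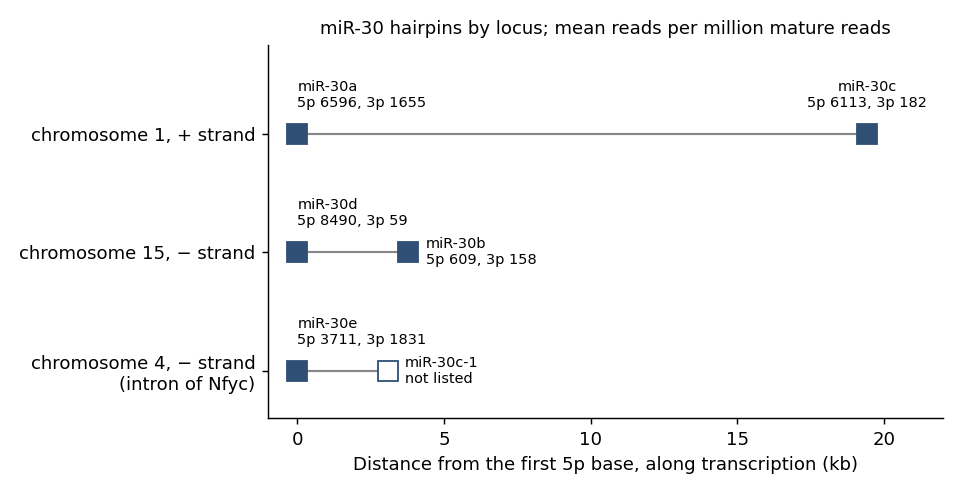
Hairpins of the miR-30 family at their 3 genomic regions, placed by the distance in kb of the first 5p base from that of the first hairpin in the direction of transcription, with the mean RPM of each arm (reads for every 1000000 mature reads) over 2 replicates. Filled squares are listed precursors and the open square is Mir30c-1, known from the annotation only. The 5p reads of miR-30c are drawn on chromosome 1 but may also come from Mir30c-1. MiR-30d had the highest 5p level (8490) and the lowest 3p level (58.8), with miR-30b (609 and 158) next to it.

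All 5 members had more reads on the 5p arm than on the 3p arm in both replicates. Summed over the family, the 5p arms held 128807 and 120043 reads (replicates 1 and 2), and the 3p arms 18539 and 19313. The 3p arms thus made up 12.6% of the arm reads in replicate 1 (95% Wilson interval 12.4% to 12.8%) and 13.9% in replicate 2 (13.7% to 14.0%), or 13.2% ± 0.90 (SD, n = 2). The 5p sum includes all reads of miR-30c-5p, some of which may come from Mir30c-1, whereas no 3p reads are listed for Mir30c-1. Over all entries, star reads were 2.45% and 2.68% of arm reads. The family therefore weighed differently in the 2 kinds of reads, with 2.55% ± 0.08 of all mature reads but 14.8% ± 0.22 of all star reads (SD, n = 2 for each). Intervals cover counting error only, since reads without molecular identifiers are not independent molecules.

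MiR-30d had the highest 5p level and the lowest 3p level of the family. It had 42326 reads of 5p in replicate 1 and 40448 in replicate 2, against 286 and 287 of 3p. The 3p arm was 0.671% and 0.705% of its arm reads, or 144 ± 5.0 reads of 5p for each read of 3p (SD, n = 2). The replicates hardly differed in either arm, and by its 3p percentage miR-30d stood near the middle of the 5p miRNAs described below.

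MiR-30b, the neighbour of miR-30d on chromosome 15, had the lowest 5p level. Its 5p arm had 3132 and 2809 reads, and its 3p arm had 758 and 784. The 3p arm was 19.5% of its arm reads in replicate 1 (18.3% to 20.8%) and 21.8% in replicate 2 (20.5% to 23.2%). The order of the pair was thus opposite on the arms. MiR-30d exceeded miR-30b on the 5p arm by 13.5 times in replicate 1 and 14.4 times in replicate 2, and miR-30b exceeded miR-30d on the 3p arm by 2.65 and 2.73 times.

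MiR-30a, on chromosome 1, had 34807 reads of 5p in replicate 1 and 29554 in replicate 2, and 7796 and 8326 of 3p. Its 3p arm was 18.3% of arm reads in replicate 1 (17.9% to 18.7%) and 21.98% in replicate 2 (21.6% to 22.4%). Here the 5p reads were fewer and the 3p reads more numerous in replicate 2. By its star reads miR-30a ranked 3 among all entries in replicate 1 and 2 in replicate 2.

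MiR-30c, 19377 bp further along the same strand, had 29651 and 29928 reads of 5p but only 902 and 872 of 3p. The 3p arm was 2.95% and 2.83% of its arm reads. On the 5p arm miR-30a and miR-30c were close, at a ratio of 1.17 in replicate 1 and 0.988 in replicate 2, so that their order changed between the replicates. On the 3p arm miR-30a exceeded miR-30c by 8.64 and 9.55 times. How many of the 5p reads came from Mir30c-1 is unknown, and the 3p percentage of the hairpin on chromosome 1 alone cannot be given for the same reason.

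MiR-30e, in the intron of Nfyc, had the highest 3p level of the family. It had 18891 and 17304 reads of 5p, and 8797 and 9044 of 3p. The 3p arm was 31.8% of its arm reads in replicate 1 (31.2% to 32.3%) and 34.3% in replicate 2 (33.8% to 34.9%), so there were 2.03 ± 0.17 reads of 5p for each read of 3p (SD, n = 2). Its star reads were the most numerous of any entry in both replicates, at 7.09% and 6.85% of all star reads. Set beside the mature reads of other entries, 66 entries had more mature reads than miR-30e-3p in each replicate, and 70 had more than miR-30a-3p.

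**Figure D2:**
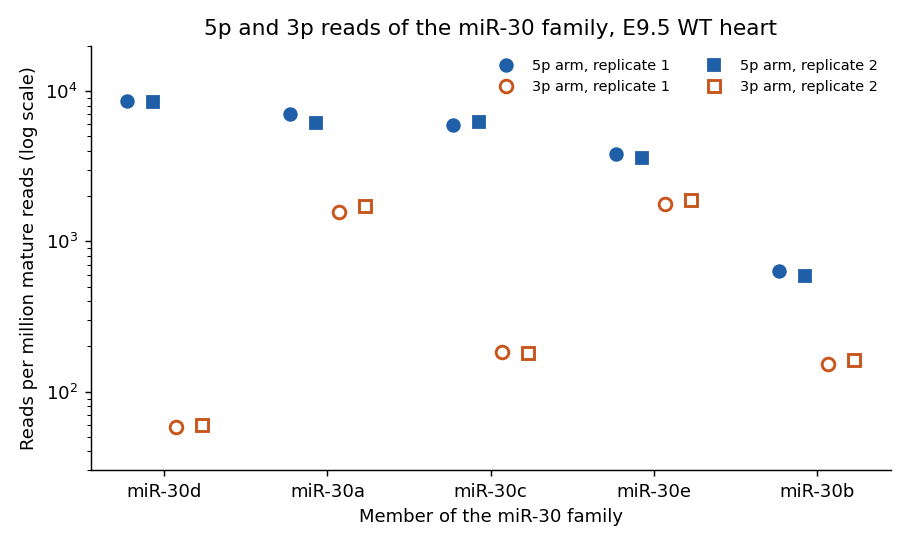
RPM (reads for every 1000000 mature reads, log scale) of the 5p arm (filled) and 3p arm (open) of each member in replicate 1 (circles) and replicate 2 (squares) of E9.5 WT hearts. Members are ordered by their 5p level, and the 3p levels do not follow that order, with miR-30d lowest at 57.9 and 59.7 and miR-30e highest at 1780 and 1882.

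The order of the 5p levels was miR-30d, miR-30a, miR-30c, miR-30e and miR-30b. Their shares of mature reads ran from 0.849% ± 0.010 for miR-30d to 0.061% ± 0.003 for miR-30b (SD, n = 2 for each). The ranges over the 2 replicates were apart between all neighbours in this order except miR-30a and miR-30c. The order of the 3p levels was miR-30e, miR-30a, miR-30c, miR-30b and miR-30d, with ranges apart between all neighbours. The closest neighbours among the 3p arms were miR-30e and miR-30a, at ratios of 1.13 in replicate 1 and 1.09 in replicate 2, followed by miR-30c and miR-30b, at 1.19 and 1.11.

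The makeup of the family accordingly differed between the arms. On the 5p arm miR-30d held 33.3% ± 0.59, miR-30a 25.8% ± 1.7, miR-30c 24.0% ± 1.4, miR-30e 14.5% ± 0.18 and miR-30b 2.39% ± 0.06 of the family's reads (SD, n = 2). On the 3p arm miR-30e held 47.1% ± 0.44 and miR-30a 42.6% ± 0.75, and miR-30c, miR-30b and miR-30d together held the rest, with 4.69%, 4.07% and 1.51%. By seed, the group with UUUCAGU took 91.0% of the family's 3p reads in replicate 1 and 91.4% in replicate 2, nearly all of it from miR-30e and miR-30a. By locus, the pair on chromosome 15 held 35.3% and 36.0% of the family's 5p reads, but 5.63% and 5.55% of its 3p reads. MiR-30e, the only listed member on chromosome 4, held 14.7% and 14.4% of the 5p reads, but 47.5% and 46.8% of the 3p reads. Any reads of miR-30c-5p that came from Mir30c-1 would also belong to chromosome 4, and their number is unknown.

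The members were compared pairwise by their 3p percentage within each replicate, with Fisher's exact test (two-sided) and Benjamini-Hochberg adjustment over 20 tests, 10 pairs in each replicate. Of these, 9 pairs differed in replicate 1 and 9 in replicate 2. The exception in both was miR-30a against miR-30b, with a difference of -1.19 percentage points in replicate 1 (adjusted p = 0.073, exact test) and 0.16 in replicate 2 (adjusted p = 0.833, exact test). The smallest difference that passed was that of miR-30c over miR-30d, at 2.28 and 2.13 percentage points (adjusted p = 2.6e-128 and 2.7e-111, exact test). These p-values cover counting error within a library, while the spread between the replicates was up to 3.68 percentage points, for miR-30a. The difference between miR-30c and miR-30d was smaller than this, but their own 3p percentages moved by only -0.12 and 0.03 percentage points between the replicates, and the ranges of the 2 members were apart. In every comparison with miR-30c, its 3p percentage rests on 5p reads that may also come from Mir30c-1.

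**Figure D3:**
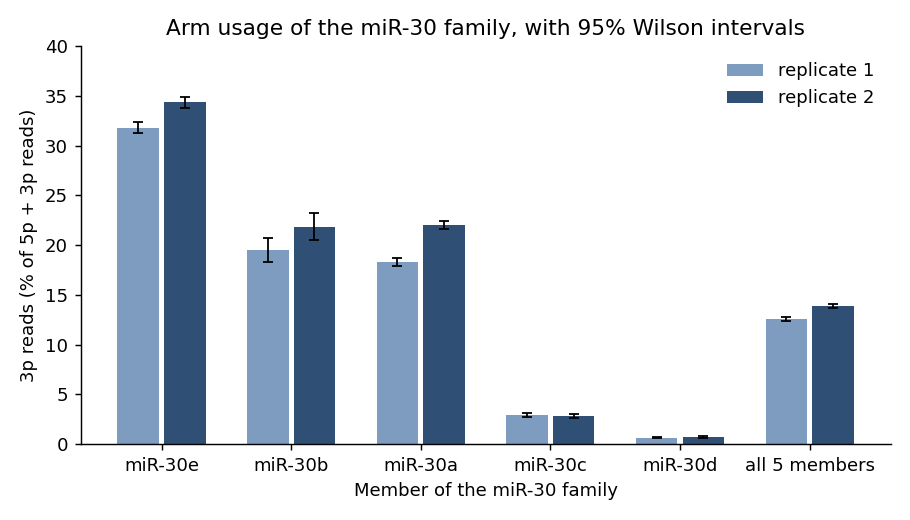
Reads of the 3p arm as percent of 5p and 3p reads for each member and for the 5 members summed, in replicate 1 (light) and replicate 2 (dark), with 95% Wilson intervals for counting error as error bars. MiR-30e stood at 31.8% and 34.3%, miR-30b and miR-30a between 18.3% and 21.98%, miR-30c below 3% and miR-30d below 1%.

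Between the replicates, the 3p percentage was higher in replicate 2 for miR-30a, by 3.68 percentage points (adjusted p = 2.3e-36, Fisher's exact test over 432 entries), and for miR-30e, by 2.55 (adjusted p = 1.4e-08, same exact test). MiR-30b had a difference of 2.33 percentage points that did not pass (adjusted p = 0.132, exact test), and for miR-30c and miR-30d the differences were -0.12 and 0.03. Thus 2 of 5 members were called, whereas 7.87% of all 432 entries were, 3.70% with a higher 3p percentage in replicate 2 and 4.17% in replicate 1. Among the 87 entries with a 5p mature arm and at least 1000 arm reads in both replicates, which are of a depth more like that of the members, 17.2% were called. Of these 15 called entries, 10 had a higher 3p percentage in replicate 2 and 5 in replicate 1. In miR-30a the 5p share was lower in replicate 2 by 0.20 on the log2 scale while the 3p reads per mature read were higher by 0.14. In miR-30e these log2 differences were -0.09 and 0.08. The direction was the same as that of the star reads of the whole library, at 2.45% and 2.68% of arm reads, and the part of such a library-wide difference in these results was not tested.

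The 5p shares of all 5 members differed between the replicates by the exact binomial test at an adjusted p under 0.05, as did 41.1% of the 431 entries tested and 68.4% of the 187 with at least 1000 mature reads in both. Of the members, 4 were lower in replicate 2, against 13.5% of all entries tested, and 1 was higher, against 27.6%. This split of all entries depended on the scaling, with 58 lower and 119 higher in replicate 2 as given, 91 and 87 with TMM, and 98 and 78 with DESeq2 size factors. As a log2 ratio (replicate 2 to replicate 1), the difference was -0.20 for miR-30a (adjusted p = 6.3e-65, exact binomial test), -0.12 for miR-30b, -0.09 for miR-30e, -0.03 for miR-30d and 0.05 for miR-30c, the last of which turned to -0.0003 with TMM scaling and -0.014 with DESeq2 size factors. The call of miR-30c was lost with both scalings (adjusted p = 1 and 0.37, exact binomial test), which left 4 members called with each. The call of miR-30d (adjusted p = 0.03, exact binomial test) was lost when each mature sequence was counted once in the whole table (adjusted p = 0.19, exact test). The median absolute log2 ratio was 0.12 among the 187 deep entries, of which 65 moved more than miR-30a and 170 more than miR-30d. By size, the difference of miR-30a was thus in the upper part of the spread between the 2 libraries and that of miR-30d near its lower end.

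The 3p percentages of the family were set beside those of all entries whose mature arm is 5p. There were 138 such entries with at least 100 arm reads in each replicate, with a median 3p percentage of 1.62% and an interquartile range of 0.107% to 10.3%. Hairpins with the same mature sequence count here as separate entries. MiR-30e had 12 entries above it, miR-30b 22 and miR-30a 23, whereas miR-30c had 56 and miR-30d 79. The place of miR-30c rests on 5p reads that may also come from Mir30c-1. Over 10% of reads on the 3p arm were seen in 35 of the 138 entries and in 3 of the 5 members. The members thus spread from the middle of these entries to their upper end, and their median was 20.1%.

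**Figure D4:**
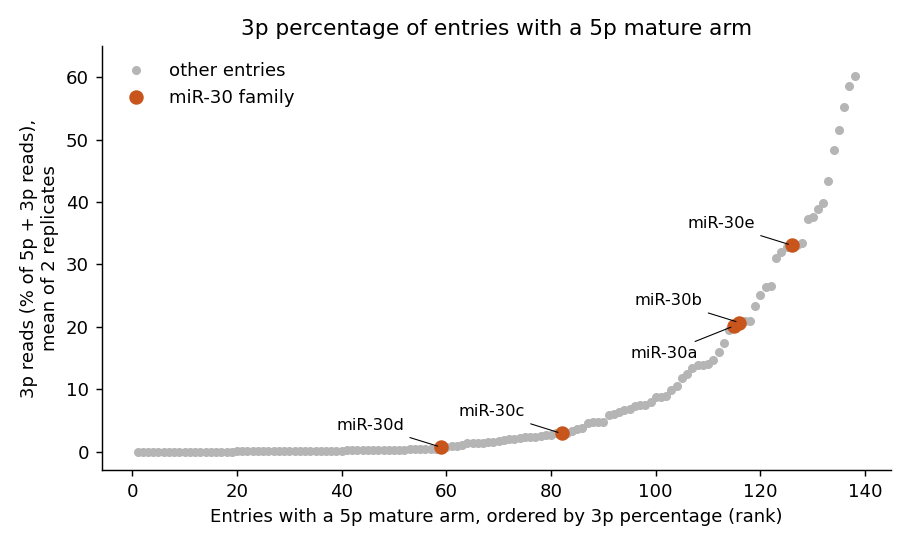
Mean 3p percentage over 2 replicates of the 138 entries with a 5p mature arm and at least 100 arm reads in each replicate, ordered from lowest to highest (each point is 1 entry). The members of the miR-30 family, marked in colour, lie between 0.688% for miR-30d and 33.0% for miR-30e.

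Other families with several members were compared by their star reads. The let-7 family with miR-98, regulators of developmental timing whose 11 entries compared here all have a 5p mature arm, had star reads of 1.13% and 1.08% of arm reads. For the miR-181 family, with 6 entries, these were 6.36% and 6.64%, and for the miR-29 family, with 3 entries and mature reads on the 3p arm, 1.38% and 1.78%. The percentage of the miR-30 family was higher than each of these in both replicates (largest adjusted p = 5.8e-32 over 6 tests, Fisher's exact test, counting error only). Mature sequences with several hairpins, such as let-7a, let-7f, miR-181a and miR-181b, are listed with about the same mature reads at each, which raises the mature reads of these families and lowers their star percentages. With identical sequences counted once, in an alternative added after seeing the data, the percentages were 1.45% and 1.42% for let-7 with miR-98, 8.996% and 9.35% for miR-181 and 1.42% and 1.84% for miR-29, and that of the miR-30 family remained higher in both replicates (largest adjusted p = 2.4e-27 over 6 tests, Fisher's exact test). The range within families was wide, from 0.038% to 14.0% in let-7 with miR-98 and from 0.13% to 32.04% in miR-181. In miR-29 it ran from 0.133% for miR-29a-3p to 18.6% for miR-29b-2-3p, and in miR-30 from 0.688% to 33.0%. Star reads were over 10% in 1 of 11 entries of let-7 with miR-98 and 3 of 6 of miR-181. For miR-29 these were 2 of 3 entries, and for miR-30 3 of 5. The 2 entries of miR-29, miR-29b-1-3p and miR-29b-2-3p, are listed with the same mature reads, 27 in replicate 1 and 30 in replicate 2. The whole miR-29 family had only 11 and 15 star reads, so its upper percentages rest on few reads, fewer than the 100 arm reads required above. The low percentage of the miR-29 family rested mostly on miR-29a-3p, with 734 of the family's 788 mature reads in replicate 1 and 770 of 830 in replicate 2. In share of mature reads, let-7 with miR-98 held 0.635% ± 0.060 and miR-181 0.263% ± 0.002 over these entries (SD, n = 2 for each). These are the 11 and 6 entries kept, of 15 and 7, when those whose position contradicts the named arm were left out. The sums are therefore not full levels of these families to set against miR-30.

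Beyond the family, the seed GUAAACA occurred in the mature arm of 1 further entry, miR-384-5p, which lies on the X chromosome and is shown for the seed it shares.
miR-384-5p: uGUAAACAauuccuaggcaaug
Replicate 2 listed it with 10 reads on the mature arm and 16 on the star, and replicate 1 did not list it. Reads with this seed were therefore almost entirely those of the 5 members. None of the 3p seeds of the family occurred in the mature or star arm of any other listed entry.

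The hairpins had further features in common. Each 5p arm began with U and each 3p arm with C, and miRDeep2 reported a significant randfold p-value, a test of folding stability against shuffled sequences, for all 5 in both replicates. The stretch between the arms was 17 to 19 nt long. When the listed precursors were folded with RNAfold, the minimum free energy ran from -31.8 kcal/mol for miR-30a to -24.4 kcal/mol for miR-30c. The arms formed 20 base pairs with each other in miR-30a and miR-30e, 18 in miR-30b and miR-30d, and 17 in miR-30c. The first base of the 5p arm was paired in miR-30a and miR-30e and unpaired in the other 3 members. The listed precursors end with the 3p arm, so the predicted pairing of the outermost bases depends on that cut.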

How the data were processed

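Small RNA of 2 samples of E9.5 WT hearts was prepared with the TruSeq Small RNA kit and sequenced on HiSeq2500 (SE50). Reads were mapped by the authors against mm9 using miRDeep2. They deposited 1 table per replicate, with unnormalized read counts (total, mature, loop and star) for precursors of known miRNAs. The deposited miRDeep2 score of each precursor, which is rounded, was not used for any value. Versions, adapter trimming and mismatch settings are not given in the sources used here. The members and lists were chosen with earlier results of these data known.

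Positions were brought to coordinates that count from 1, and an entry was matched between replicates if the same strand held overlapping precursors that shared 50% or more of each length. An arm is 5p where its sequence begins the listed precursor. An entry that the tables mark as having its reads on the star was renamed to that arm. Entries whose position on the precursor contradicts the named arm were left out of the comparisons of arm usage with other miRNAs, except miR-1934-3p. It was kept among the entries with a 5p mature arm, since its mature reads lie on that arm. Its mean 3p percentage was 0.416%, below that of each member. Shares are percent of all mature reads of a replicate (4942257 and 4806179). A share of up to 6.07e-05% and 6.24e-05% is allowed by a count of 0 (3 reads).

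Levels were compared between the replicates by the exact binomial test on entries with at least 20 mature reads in sum, and arm usage by Fisher's exact test on entries with at least 20 arm reads in sum, both two-sided with Benjamini-Hochberg adjustment over the whole table. With 1 group, the quasi-likelihood test of edgeR has no contrast. Both tests were tested on data simulated with counting error only, which cannot show how they behave under further spread between replicates. Scaling alternatives came from edgeR 4.0.16 (TMM) and DESeq2 1.42.0 under R 4.3.3. Other steps used Python 3.11.15, scipy 1.17.1 and ViennaRNA 2.7.2. Named were the 5 members, entries with the same seed, the entries next to each member by mean share, the 3 entries nearest to the family in 3p percentage, and the families let-7 with miR-98, miR-29 and miR-181. The labelled tissue was checked with lists of cell type miRNAs, and those not given with the results held, in replicates 1 and 2, 0.219% and 0.270% of mature reads (erythroid), 0.0193% and 0.0148% (neural), 0.0421% and 0.0554% (liver), and 0.0274% and 0.0278% (epithelium). In these shares, too, miRNAs with several hairpins, such as miR-486a and miR-9, were counted at each of them.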

Additional observations from a re-analysis of the deposited data

Results flagged for a closer look

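Reads on the stretch between the arms, which entered no comparison in the report (only alternative totals counted them), were above the floor of 3 reads in miR-30e, with 31 in replicate 1 and 42 in replicate 2. This stretch is uguaagguguugagaggag. The other 4 members had 0 loop reads in both replicates. Of all entries, 58 had loop reads in replicate 1 and 58 in replicate 2, and by their number miR-30e ranked 8 and 6. The study has no control samples for such reads.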

How the results depend on the processing

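No paired analysis was possible because there is only 1 group of samples. Leaving out a replicate gives a value but no test. The family's 5p share then ran from 2.50% to 2.61% and its 3p percentage from 12.6% to 13.9%. When identical mature sequences were counted only once, the 5p share of the family was 3.49%, and those of the members to 0.903% (miR-30a), 0.0834% (miR-30b), 0.837% (miR-30c), 1.16% (miR-30d) and 0.508% (miR-30e), because the total then counts fewer entries. With all precursor reads as the total, miR-30d held 0.827%. The family's 3p percentage was 15.5% as an unweighted mean of the members and, in an alternative added after seeing the data, 18.4% without miR-30d. The ratio of miR-30a to miR-30c was 1.08 on mature reads, 1.31 on all precursor reads and, also added later, 9.10 on 3p reads. That of miR-30d to miR-30b was 14.0, 11.1 and 0.372. For miR-30c the log2 ratio between replicates turned from 0.05 to -0.00033 with TMM and -0.014 with DESeq2 size factors. These scalings gave 178 and 176 entries whose level differed against 177, of which 87 and 78 were higher in replicate 2 against 119. The number of entries whose 3p percentage differed ran from 32 to 35 over all settings, and miR-30a and miR-30e were called in each. The call of miR-30c-5p between replicates was lost with both scalings and that of miR-30d-5p with identical sequences counted once. The star percentage of the compared families, in the alternative added later, moved from 1.11% to 1.43% (let-7 with miR-98) and from 6.50% to 9.18% (miR-181), and the alternatives not given here kept the direction and the side of the threshold or moved by less than the spread between replicates. With 2 samples of 1 group, the tests measure counting error only. Low 3p counts limit what could be detected for 3 members, with 286 and 287 reads of miR-30d-3p, 758 and 784 of miR-30b-3p and 902 and 872 of miR-30c-3p.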

Other observations

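Next to the members in the order of mean 5p share stood miRNAs of other families. MiR-30d-5p lay between miR-7a-5p (0.929% ± 0.051) and miR-218-5p (0.740% ± 0.006), with ranges apart from both. MiR-30c-5p lay between miR-145a-5p (0.625% ± 0.001) and miR-20a-5p (0.571% ± 0.020), again with ranges apart (SD, n = 2 for each). MiR-30a-5p was not apart from miR-27b-3p or miR-351-5p, miR-30e-5p not from miR-134-5p or miR-409-3p, and miR-30b-5p not from miR-380-3p or miR-679-5p. Nearest to the family in 3p percentage, among 5p miRNAs with 1000 or more mature reads in each replicate, were miR-181a-5p (13.5% ± 2.5), miR-340-5p (13.8% ± 2.7) and miR-425-5p (13.9% ± 1.6; SD, n = 2 for each). The value of miR-181a-5p is that of 1 of its hairpins, and another, listed with the same mature reads, had 32.04%.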
